A study of Homo sapiens with 24 samples.

Results

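The subject is the part of the JQ1 response that differed between MHH-CALL4 and MUTZ-5, a pair of established human leukemia lines derived from B cell precursor acute lymphoblastic disease. For every gene the JQ1 effect, that is the JQ1 level minus the DMSO level on the log2 scale, was computed in each line, and the MHH-CALL4 effect was subtracted from the MUTZ-5 effect. All 12 arrays summarised at the core level entered, of 24 deposited columns that come from 12 scans, and the comparison was run over 14232 genes. The 4 groups were MHH-CALL4 with DMSO, MHH-CALL4 with 500 nM JQ1, MUTZ-5 with DMSO and MUTZ-5 with 500 nM JQ1, with 3 arrays in each and 8 hours of exposure in all of them. Both lines were kept in RPMI medium with fetal bovine serum, antibiotics and glutamine, and DMSO, the solvent of JQ1, served as the control. Whether the 3 arrays per group stem from separate cultures is not given in the labels, so p-values cover only the spread among these arrays, which may be technical. Each line is 1 leukemia, so a difference between the lines is a difference between these cells and not between kinds of leukemia.

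BET proteins, among them BRD2 and BRD3, bind acetylated histones through their bromodomains and help to bring the elongation kinase P-TEFb to genes that are being transcribed. JQ1 fills the pocket that holds acetylated lysine and so releases BET proteins from chromatin. In B cell precursor leukemia the inhibitor is best known for lowering MYC, and genes near strong enhancers, which vary from cell to cell, are often among those that respond.

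Array medians over all genes ran from 8.46 to 8.57 log2 units. Of 12 precursor B cell markers 10 were measured, and 9 of them (CD79A, CD79B, PAX5, EBF1, VPREB1, DNTT, MME, CD22 and BLNK) stood at or above the median level of 8.52 in all 4 groups, with list means between 11.68 and 12.09 per array. The markers of T and NK cells had list means between 6.61 and 6.92, those of stroma and endothelium between 6.81 and 7.05, and those of erythroid cells and megakaryocytes between 7.20 and 7.55. MUTZ-5 DMSO replicate 3 stood farthest from its group, with a root mean square residual of 0.210 log2 units, followed by MHH-CALL4 JQ1 replicate 3 with 0.187. The other arrays had values between 0.107 and 0.162.

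A small group of genes responded differently to JQ1 in the lines. The difference of effects passed the test in 218 of 14232 genes, which is 1.53% (limma, adjusted p under 0.05 by Benjamini-Hochberg across the genes). In 135 genes (0.949%) the MUTZ-5 effect lay above the MHH-CALL4 effect, and in 83 genes (0.583%) it lay below. A difference of at least 2-fold, that is 1 log2 unit, was found in 71 of the called genes (0.499%), of which 41 lay above and 30 below. For comparison, JQ1 itself changed 4057 genes (28.5%) in MHH-CALL4 and 3138 (22.0%) in MUTZ-5. Of 2345 genes called in both lines 2324 moved in the same direction and 21 in opposite directions. Over all genes the effects of the lines had a Pearson correlation of 0.767 and a Spearman correlation of 0.689, which describe genes within these arrays and carry no test.

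A call in a single line did not by itself amount to a called difference between the lines. JQ1 effects were called in 1 line alone for 2505 genes, and 140 of these also passed the test of the difference itself, beside 218 of all 14232 genes. The difference has a larger standard error than the effect in a single line, so a gene that did not pass may still differ. The 95% interval of the difference lay within 0.5 log2 units of 0 in 9659 genes (67.9%) and within 1 log2 unit in 13834 (97.2%). Called genes differed by 0.42 to 2.43 log2 units, with a median size of 0.80, against a median standard error of 0.14 over all genes. The median difference over all genes was 0.019. At the threshold, ZMYND8 (0.43) and MCAM (0.42) were the last genes inside, and DLX1 (-0.45) and F2RL3 (-0.57) the first outside.

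Of the arrays that stood apart, MUTZ-5 DMSO replicate 3 was the one whose removal raised the number of called genes. Without MUTZ-5 DMSO replicate 3 the test called 360 genes, 262 above 0 and 98 below, among them 206 of the 218. Without MHH-CALL4 JQ1 replicate 3 alone it called 196, 125 above and 71 below, with 179 of the 218. Without both arrays together it called 306, 222 above and 84 below, with 199 of the 218.

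The called genes fell into 4 classes by the line with the larger effect and its direction. Genes that were lower under JQ1 mainly in MHH-CALL4 numbered 114, or 52.3% of the calls, and 70 of them were called lower in MHH-CALL4 alone. Genes that were lower mainly in MUTZ-5 numbered 67, or 30.7%, with 45 called lower in MUTZ-5 alone. Increases were rarer among the called genes, with 16 genes higher mainly in MHH-CALL4 and 21 higher mainly in MUTZ-5. Another 20 genes, counted within these classes, were called in both lines in opposite directions. Without MUTZ-5 DMSO replicate 3 the 4 classes held 192, 71, 27 and 70 genes in the same order.

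**Figure D1:**
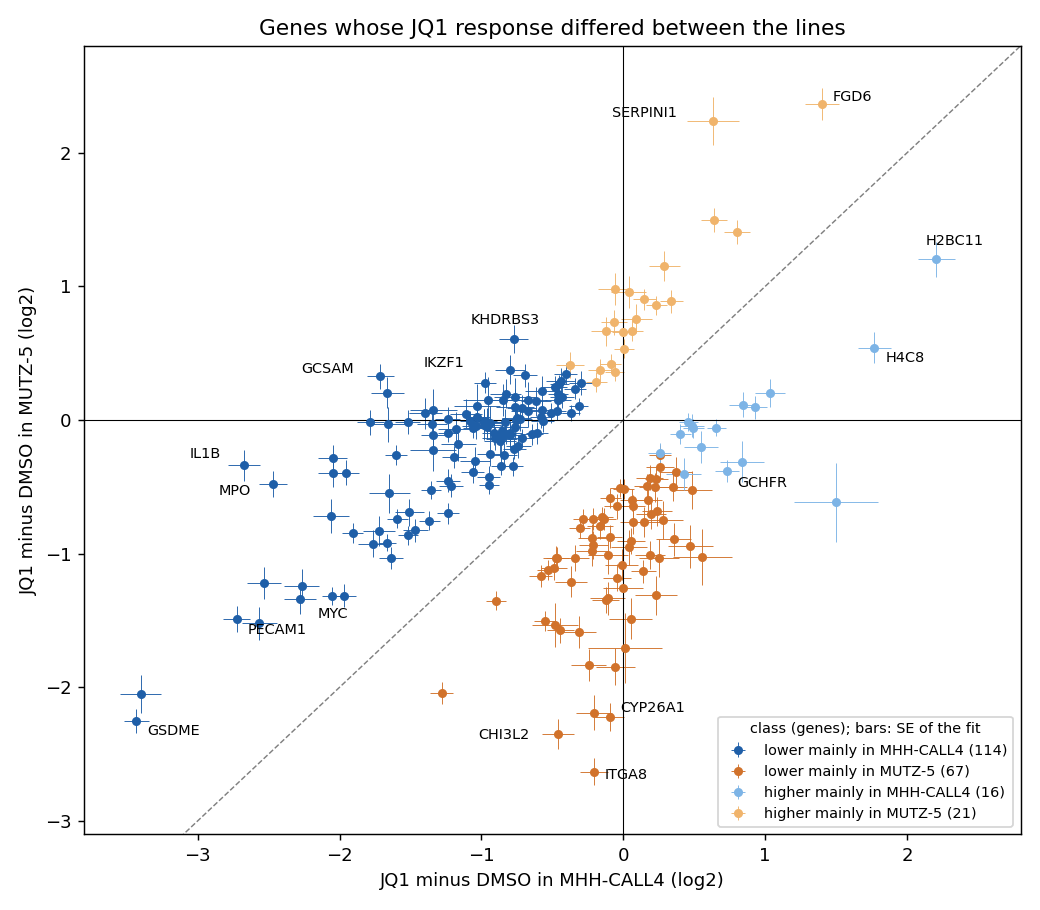
JQ1 effect in MHH-CALL4 (x axis, log2) against that in MUTZ-5 (y axis, log2) for the 218 genes whose effects differed, with standard errors of the fit as bars. The dashed line marks equal effects, and most points lie left of 0 or below 0, among the 114 genes lower mainly in MHH-CALL4 and the 67 lower mainly in MUTZ-5.

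GCSAM, IKZF1 and KHDRBS3 fell under JQ1 in MHH-CALL4 and rose in MUTZ-5. There the effects of GCSAM (0.33, adjusted p = 0.022) and IKZF1 (0.28, adjusted p = 0.021) were the smallest in size among the 6 genes named for the opposite class. GCSAM encodes a signalling protein of germinal centre B cells that acts on cell motility. Its MHH-CALL4 levels were 11.58, 11.55 and 11.59 log2 units under DMSO and 9.93, 9.88 and 9.77 under JQ1. Its MUTZ-5 levels were 12.42, 12.41 and 12.51 under DMSO and 12.92, 12.86 and 12.54 under JQ1. All 3 MHH-CALL4 JQ1 values lay far below every other array, and in MUTZ-5 the JQ1 values lay above the DMSO values by a narrow margin in replicate 3. GCSAM fell 3.28-fold in MHH-CALL4 and rose 1.26-fold in MUTZ-5, a difference of 2.04 (SE 0.13, 95% interval 1.75 to 2.33, n = 3 per group, limma adjusted p = 6.2e-06).

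IKZF1 encodes Ikaros, a zinc finger factor that B cell development needs and that is often damaged in high-risk B cell leukemia. In MHH-CALL4 it read 12.59, 12.50 and 12.53 under DMSO and 11.66, 11.60 and 11.43 under JQ1. In MUTZ-5 it read 12.20, 12.14 and 12.33 under DMSO and 12.48, 12.56 and 12.48 under JQ1. Under DMSO IKZF1 was thus the lower in MUTZ-5, and under JQ1 it was the lower in MHH-CALL4, with no overlap of groups within either line. The JQ1 effect was -0.98 in MHH-CALL4 and 0.28 in MUTZ-5, and the effects differed by 1.26 (SE 0.11, 95% interval 1.01 to 1.50, adjusted p = 4.5e-05). Over all alternatives run this difference stayed between 1.19 and 1.31.

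KHDRBS3, an RNA-binding protein of the STAR family that takes part in splicing, showed the strongest opposite movement by the smaller of its effects. Its levels were 11.70, 11.55 and 11.61 under DMSO and 10.97, 10.89 and 10.69 under JQ1 in MHH-CALL4. In MUTZ-5 they were 9.25, 9.19 and 9.56 under DMSO and 9.98, 9.98 and 9.87 under JQ1. Every JQ1 value lay below every DMSO value in MHH-CALL4 and above every DMSO value in MUTZ-5, so that the lines came closer together under JQ1. The effects were -0.77 and 0.61, with a difference of 1.38 (SE 0.15, adjusted p = 2.0e-04).

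MPP1, a membrane scaffold of the guanylate kinase-like family, and GNPTAB, which makes the mannose 6-phosphate tag of lysosomal enzymes, went the same way with smaller effects. MPP1 fell by 0.69 in MHH-CALL4 and rose by 0.33 in MUTZ-5 (difference 1.03, SE 0.12, adjusted p = 3.5e-04). GNPTAB fell by 0.41 and rose by 0.35 (difference 0.75, SE 0.11, adjusted p = 0.0033). GCHFR, the feedback regulator of the enzyme that starts tetrahydrobiopterin synthesis, went the other way. It read 9.97, 9.98 and 10.08 under DMSO and 10.79, 10.67 and 10.75 under JQ1 in MHH-CALL4, and 7.94, 7.88 and 7.86 under DMSO and 7.69, 7.47 and 7.37 under JQ1 in MUTZ-5. The groups did not overlap within either line, and the difference was -1.11 (SE 0.12, adjusted p = 2.2e-04). With the extended summaries of the same scans it was only -0.20 (adjusted p = 0.92), so the GCHFR call depends on which probe sets are summed. The number of opposite genes was 9 with extended summaries and, with 1 array left out, between 10 (without MUTZ-5 JQ1 replicate 2) and 34 (without MUTZ-5 DMSO replicate 3).

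**Figure D2:**
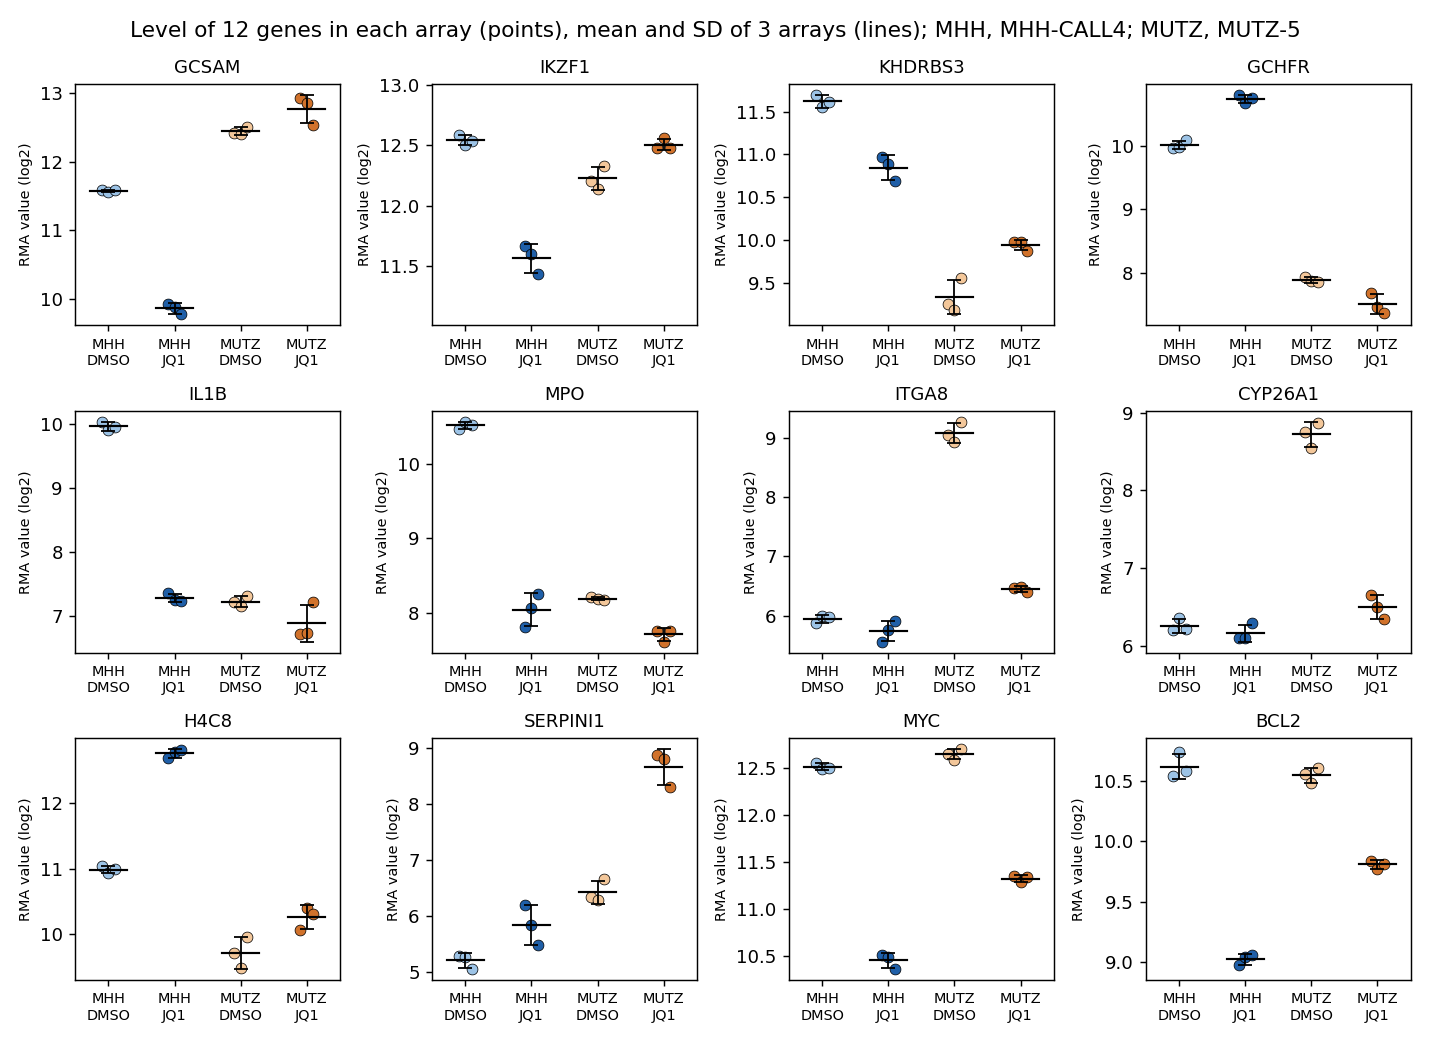
Level of 12 genes in each of the 12 arrays (y axis, RMA value in log2 units; axes differ between panels and do not start at 0), by line and treatment (x axis), with the mean and SD of 3 arrays as lines. GCSAM, IKZF1 and KHDRBS3 fall in MHH-CALL4 and rise in MUTZ-5, and ITGA8 and CYP26A1 fall in MUTZ-5 from levels that MHH-CALL4 does not reach.

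Start regions are shown for GCSAM and IKZF1, which moved in opposite directions, and for IL1B and ITGA8, which had the largest differences each way at the core level. Each is the 250 bases before the RefSeq gene start on GRCh38.p14, written 5′ to 3′ on the gene's own strand, at chr3:112133249-112133498 (minus strand) for GCSAM, chr7:50304466-50304715 (plus) for IKZF1, chr2:112836780-112837029 (minus) for IL1B and chr10:15719923-15720172 (minus) for ITGA8. Capitals mark a match to one of the motifs searched.
GCSAM: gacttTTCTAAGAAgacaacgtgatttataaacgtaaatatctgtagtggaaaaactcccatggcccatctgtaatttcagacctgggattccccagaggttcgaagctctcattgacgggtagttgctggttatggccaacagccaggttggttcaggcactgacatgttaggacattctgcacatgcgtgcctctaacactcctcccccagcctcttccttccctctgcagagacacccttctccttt
IKZF1: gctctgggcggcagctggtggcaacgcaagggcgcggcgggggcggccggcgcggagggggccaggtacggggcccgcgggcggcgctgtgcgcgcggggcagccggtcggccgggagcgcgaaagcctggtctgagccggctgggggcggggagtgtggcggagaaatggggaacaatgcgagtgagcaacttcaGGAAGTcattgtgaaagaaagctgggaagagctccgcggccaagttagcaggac
IL1B: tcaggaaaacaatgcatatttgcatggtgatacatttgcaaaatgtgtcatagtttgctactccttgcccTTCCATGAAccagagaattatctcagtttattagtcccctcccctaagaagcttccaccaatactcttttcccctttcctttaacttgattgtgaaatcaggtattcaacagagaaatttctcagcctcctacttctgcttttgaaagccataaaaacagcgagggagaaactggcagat
ITGA8: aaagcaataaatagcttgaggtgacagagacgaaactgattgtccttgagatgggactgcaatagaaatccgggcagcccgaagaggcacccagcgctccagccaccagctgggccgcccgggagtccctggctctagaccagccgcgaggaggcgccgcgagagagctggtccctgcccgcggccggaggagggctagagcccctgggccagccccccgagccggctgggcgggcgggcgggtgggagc
The motif strings searched, on both strands, were the E-box CACGTG, the STAT-type TTCNNNGAA, the ETS-type GGAAGT and the AP-1-type TGANTCA. GCSAM holds TTCNNNGAA 245 bases before its start and IL1B 180 bases before, IKZF1 holds GGAAGT 54 bases before, and the ITGA8 stretch holds none of these letters. Of the 28 genes named for the 4 classes and the opposite class, 23 matched a RefSeq promoter. TTCNNNGAA stood in 3 of the 23 (GCSAM, IL1B and CHI3L2; 13.04%, against 6.78% of 27305 promoters of the same length). GGAAGT stood in 4 (IKZF1, MPP1, CHI3L2 and SERPINI1; 17.39% against 19.92%), CACGTG in CYP26A1 alone (4.35% against 6.49%), and TGANTCA in 0 (0.00% against 6.60%). A match describes letters in this window and is no evidence of a bound site.

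Among genes lower mainly in MHH-CALL4 whose highest group mean reached the median level, IL1B, MPO, KCNQ5, LGR5 and SAMSN1 led together with GCSAM. IL1B encodes the inflammatory cytokine interleukin-1 beta. It read 10.03, 9.91 and 9.95 under DMSO and 7.36, 7.26 and 7.24 under JQ1 in MHH-CALL4, and 7.22, 7.16 and 7.32 under DMSO and 6.72, 6.74 and 7.22 under JQ1 in MUTZ-5. Only the 3 MHH-CALL4 DMSO arrays were high, and JQ1 brought MHH-CALL4 to about the level that MUTZ-5 had without it. The effects were -2.67 in MHH-CALL4 and -0.34 in MUTZ-5 (adjusted p = 0.052 for the latter), and they differed by 2.34 (SE 0.16, 95% interval 1.98 to 2.69, adjusted p = 6.2e-06). The IL1B difference was 1.63 with extended summaries, below that of GCSAM (2.04).

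MPO, the myeloperoxidase of neutrophil granules, showed the same shape. Its MHH-CALL4 values were 10.46, 10.56 and 10.51 under DMSO and 7.81, 8.07 and 8.25 under JQ1, and its MUTZ-5 values 8.21, 8.19 and 8.17 under DMSO and 7.76, 7.62 and 7.76 under JQ1. The MHH-CALL4 DMSO arrays again stood alone, and MPO fell in both lines, 5.54-fold and 1.39-fold (difference 1.99, SE 0.14, adjusted p = 6.2e-06). The MPO difference was 1.51 with extended summaries. LGR5, a receptor for R-spondin that strengthens Wnt signalling, read 11.30, 11.60 and 11.42 under DMSO and 9.70, 9.62 and 9.65 under JQ1 in MHH-CALL4. In MUTZ-5 all 6 LGR5 values lay between 5.55 and 5.83, below the lower quartile of all genes (6.99). LGR5 fell 3.44-fold in MHH-CALL4, and its MUTZ-5 effect was -0.02 (difference 1.77, SE 0.13, adjusted p = 1.3e-05).

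KCNQ5 and SAMSN1 were likewise low in MUTZ-5 under either treatment. KCNQ5, a voltage-gated potassium channel, lay between 6.18 and 6.72 in the 6 MUTZ-5 arrays, and SAMSN1, an adaptor that restrains B cell activation, between 5.05 and 5.60. In MHH-CALL4 KCNQ5 fell by 1.66 from 11.10, 10.94 and 10.99 to 9.48, 9.44 and 9.13, with a difference between lines of 1.87 (SE 0.16, adjusted p = 4.1e-05). SAMSN1 fell there by 2.05 from 8.86, 9.13 and 8.80 to 6.90, 6.87 and 6.87, with a difference of 1.76 (SE 0.14, adjusted p = 2.5e-05). In both genes the JQ1 and DMSO arrays of MHH-CALL4 did not overlap.

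Among genes lower mainly in MUTZ-5 whose highest group mean reached the median level, ITGA8, CYP26A1, GJB6, CHI3L2, GABRG3 and ALKAL2 led. ITGA8 encodes the integrin alpha 8 chain, which binds matrix proteins. Its levels were 9.04, 8.93 and 9.27 under DMSO and 6.46, 6.49 and 6.39 under JQ1 in MUTZ-5, and 5.87, 5.99 and 5.97 under DMSO and 5.56, 5.75 and 5.90 under JQ1 in MHH-CALL4. Only MUTZ-5 with DMSO was above the lower quartile of all genes, and its 3 values lay clear of the other 9 arrays. The effects were -2.63 in MUTZ-5 and -0.21 in MHH-CALL4, a difference of -2.43 (SE 0.14, 95% interval -2.74 to -2.12, adjusted p = 3.8e-06), the largest of all genes.

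CYP26A1, which breaks down retinoic acid, behaved alike. It read 8.76, 8.55 and 8.86 under DMSO and 6.65, 6.50 and 6.34 under JQ1 in MUTZ-5, and between 6.10 and 6.36 in the 6 MHH-CALL4 arrays. It fell 4.67-fold in MUTZ-5, and its MHH-CALL4 effect was -0.09 (difference -2.13, SE 0.14, adjusted p = 6.2e-06). GJB6, a gap junction protein, fell in MUTZ-5 from 10.86, 10.45 and 10.45 to 8.55, 8.36 and 8.29, and lay between 6.57 and 7.10 in MHH-CALL4 (difference -1.98, SE 0.18, adjusted p = 5.6e-05). Under JQ1 the mean of CYP26A1 was 6.50 in MUTZ-5 and 6.16 in MHH-CALL4, so the lines came close, whereas GJB6 stayed apart at 8.40 and 6.68.

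CHI3L2 encodes a chitinase-like protein without enzyme activity. It fell in both lines, by 2.35 in MUTZ-5 from 12.02, 11.87 and 12.13 to 9.74, 9.64 and 9.60, and by 0.46 in MHH-CALL4 from 7.04, 7.07 and 7.43 to 6.86, 6.71 and 6.58 (difference -1.89, SE 0.16, adjusted p = 2.9e-05). GABRG3, a subunit of the GABA-A receptor, fell by 1.85 in MUTZ-5 from 10.52, 10.51 and 10.56 to 8.68, 8.64 and 8.72, and its MHH-CALL4 effect was -0.06 at levels between 5.97 and 6.64 (difference -1.79, SE 0.20, adjusted p = 2.7e-04). ALKAL2, a ligand of the receptor kinase ALK, fell by 1.03 in MUTZ-5 and had an effect of 0.56 in MHH-CALL4 (adjusted p = 0.063), where its 6 values spread from 4.95 to 6.29. Its difference of -1.58 (SE 0.30, adjusted p = 0.014) was -0.96 with extended summaries, and the fit that left out MHH-CALL4 DMSO replicate 2 did not call it (adjusted p = 0.051).

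**Figure D3:**
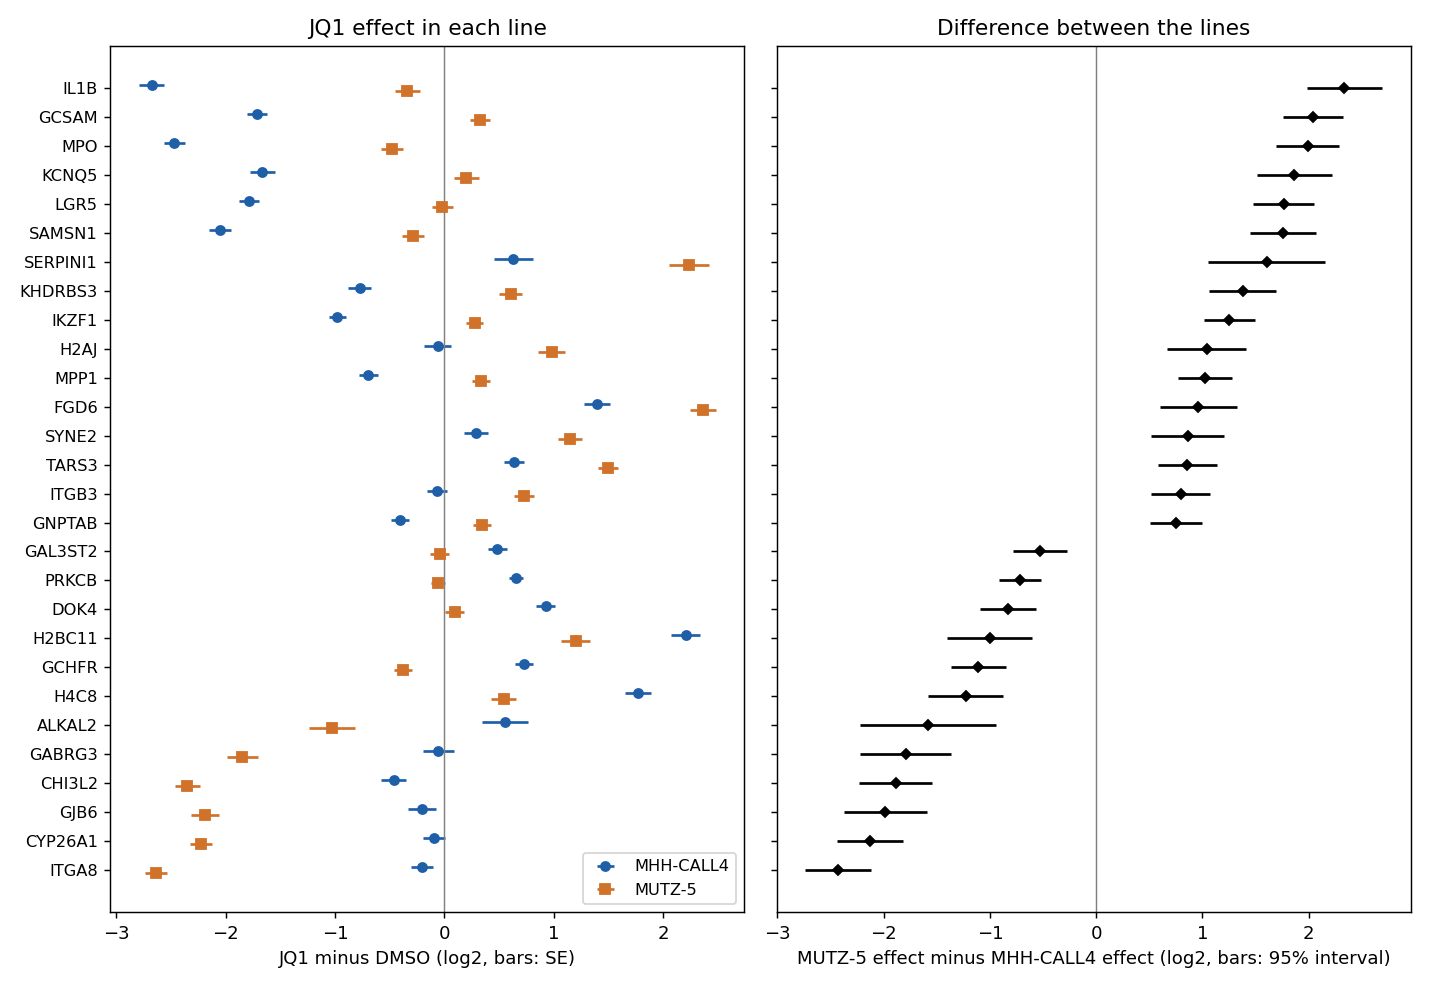
JQ1 effect in each line (left panel, x axis, log2, bars are standard errors) and the difference of effects (right panel, x axis, log2, bars are 95% intervals) for the 28 genes named for the 4 classes and the opposite class. Differences run from -2.43 for ITGA8 to 2.34 for IL1B, and no interval reaches 0.

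Of the 16 genes higher under JQ1 mainly in MHH-CALL4, 8 had a highest group mean that reached the median level of all genes. These 8 were led by the histone genes H4C8 and H2BC11 beside GCHFR. The largest difference of the whole class, 2.12 in size, belonged to a gene below that level. H4C8 encodes a histone H4 and read 11.04, 10.93 and 10.99 under DMSO and 12.68, 12.78 and 12.81 under JQ1 in MHH-CALL4, and 9.71, 9.48 and 9.96 under DMSO and 10.06, 10.41 and 10.31 under JQ1 in MUTZ-5. It rose in both lines without overlap, 3.41-fold in MHH-CALL4 and 1.46-fold in MUTZ-5 (difference -1.23, SE 0.16, adjusted p = 0.0012). H2BC11 rose 4.62-fold and 2.30-fold (difference -1.003, SE 0.19, adjusted p = 0.014), but its call was lost with extended summaries (-0.77, adjusted p = 0.13). Since histone genes resemble one another closely, their probe sets may cross-read, and both values are uncertain to that extent.

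DOK4 and PRKCB rose in MHH-CALL4 alone, in both cases from a DMSO level below that of MUTZ-5. DOK4, a docking protein of receptor tyrosine kinases, rose by 0.93 in MHH-CALL4 with a MUTZ-5 effect of 0.09 (difference -0.83, SE 0.12, adjusted p = 0.0028; -0.55 with extended summaries). PRKCB, the protein kinase C beta of B cell receptor signalling, read 10.84, 10.91 and 10.79 under DMSO and 11.49, 11.52 and 11.49 under JQ1 in MHH-CALL4. Its 6 MUTZ-5 values lay between 12.34 and 12.48 under both treatments. The PRKCB effects were thus 0.66 and -0.06 (difference -0.71, SE 0.09, adjusted p = 9.6e-04). GAL3ST2, a sulfotransferase, had a difference of -0.53 (SE 0.12, adjusted p = 0.047) that lost its call in 10 of the 12 fits with 1 array left out, all but those without MHH-CALL4 DMSO replicate 3 and without MUTZ-5 DMSO replicate 3 (adjusted p from 0.085 to 0.14).

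Among genes higher mainly in MUTZ-5 whose highest group mean reached the median level, SERPINI1, H2AJ, FGD6, SYNE2, TARS3 and ITGB3 led. SERPINI1 encodes neuroserpin, a protease inhibitor. It read 5.29, 5.27 and 5.06 under DMSO and 6.20, 5.84 and 5.49 under JQ1 in MHH-CALL4, and 6.33, 6.27 and 6.66 under DMSO and 8.88, 8.80 and 8.29 under JQ1 in MUTZ-5. It rose in both lines without overlap, but only the MUTZ-5 JQ1 arrays lay above the lower quartile of all genes (difference 1.60, SE 0.26, adjusted p = 0.0050). FGD6, an exchange factor for the small GTPase CDC42, rose by 1.40 in MHH-CALL4 and by 2.36 in MUTZ-5 (difference 0.96, SE 0.17, adjusted p = 0.0085).

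H2AJ, which encodes the H2A variant H2A.J, rose by 0.98 in MUTZ-5 with an effect of -0.06 in MHH-CALL4 (difference 1.04, SE 0.17, adjusted p = 0.0066). TARS3, a threonyl-tRNA synthetase, rose by 0.64 and 1.50 (difference 0.86, SE 0.13, adjusted p = 0.0031). SYNE2, which links the nucleus to the cytoskeleton, rose by 1.15 in MUTZ-5 with an effect of 0.29 in MHH-CALL4 (difference 0.86, SE 0.16, adjusted p = 0.013). ITGB3, the integrin beta 3 chain, rose by 0.73 in MUTZ-5 from 8.02, 8.03 and 8.05 to 8.82, 8.87 and 8.59, with an effect of -0.07 in MHH-CALL4 (difference 0.80, SE 0.13, adjusted p = 0.0053). The integrin chains ITGA8 and ITGB3 thus moved in opposite directions within MUTZ-5.

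Several genes tied to BET inhibition fell in both lines and differed only in size. MYC, the growth-promoting transcription factor, fell by 2.05 in MHH-CALL4 and by 1.32 in MUTZ-5 from nearly equal DMSO levels (12.51 ± 0.038 and 12.65 ± 0.056, mean ± SD, n = 3), and these effects differed by 0.73 (SE 0.097, 95% interval 0.53 to 0.94, adjusted p = 0.0011). BCL2, which blocks apoptosis at mitochondria, read 10.54, 10.73 and 10.58 under DMSO and 8.97, 9.04 and 9.06 under JQ1 in MHH-CALL4, and 10.55, 10.48 and 10.60 under DMSO and 9.84, 9.77 and 9.81 under JQ1 in MUTZ-5. The DMSO values of the lines overlapped, whereas every MHH-CALL4 JQ1 value lay below every MUTZ-5 JQ1 value. BCL2 fell 3.02-fold and 1.67-fold (difference 0.86, SE 0.10, adjusted p = 5.0e-04). GSDME, which encodes the pore-forming gasdermin E, had effects of -3.43 and -2.25 (difference 1.18, SE 0.12, adjusted p = 1.7e-04), and ERG, a transcription factor of the ETS family, by 1.36 and 0.52 from 11.78 ± 0.073 and 11.90 ± 0.051 (difference 0.83, SE 0.095, adjusted p = 3.4e-04). MYC, BCL2, GSDME and ERG kept their calls in every alternative run.

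Other genes central to the treatment gave no call for a difference, with intervals that limit its size. IL7R, the interleukin-7 receptor chain, fell by 1.96 in MHH-CALL4 and 2.19 in MUTZ-5, and the effects differed by -0.23 (95% interval -0.58 to 0.12, limma adjusted p = 0.71). HEXIM1, the P-TEFb inhibitor that serves as a marker of BET inhibition, rose by 1.76 and 1.51 (difference -0.25, interval -0.50 to -0.0018, adjusted p = 0.47). BRD2 differed by 0.064 (interval -0.19 to 0.31, adjusted p = 0.93) and BRD3 by 0.062 (interval -0.15 to 0.27, adjusted p = 0.92). JAK2, the kinase downstream of cytokine receptors, differed by 0.17 (interval -0.16 to 0.50, adjusted p = 0.80). The survival gene BCL2L1 fell by 0.75 and 1.001 (difference -0.25, interval -0.46 to -0.038, adjusted p = 0.36), and CDKN1A, the p21 inhibitor of cyclin-dependent kinases, differed by -0.26 (interval -0.49 to -0.027, adjusted p = 0.40). PRKAR2B, a regulatory subunit of protein kinase A, rose by 1.81 and 2.45 with wider spread (difference 0.64, interval 0.15 to 1.13, adjusted p = 0.27). With extended summaries the PRKAR2B difference was 0.19 (adjusted p = 0.86), while array weights (adjusted p = 0.0025) and the fit without both arrays that stood apart (adjusted p = 0.049) called it. HEXIM1, BCL2L1, CDKN1A and PRKAR2B have intervals that leave out 0 and did not pass after adjustment over all genes in the main fit. Array weights, with which limma called 1537 genes, also called HEXIM1 (adjusted p = 0.048), BCL2L1 (adjusted p = 0.031) and CDKN1A (adjusted p = 0.044).

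Among B lineage transcription factors the called members all fell, or fell further, in MHH-CALL4. Of 33 measured members 5 were called, all with the MUTZ-5 effect above the MHH-CALL4 effect, beside 0.949% of all genes called in that direction. Besides IKZF1 and ERG these were IKZF2 (Helios), which fell by 1.16 in MHH-CALL4 with an effect of -0.18 in MUTZ-5 (difference 0.98, SE 0.18, adjusted p = 0.010), and, singled out after their values were seen, BACH2 (0.72, adjusted p = 0.0053) and ETV6 (0.65, adjusted p = 0.0032). ETV6 read 12.39 ± 0.038 in MHH-CALL4 and 6.80 ± 0.10 in MUTZ-5 under DMSO (mean ± SD, n = 3), so the MUTZ-5 level lay below the lower quartile of all genes. JQ1 lowered 17 members and raised 3 in MHH-CALL4, and lowered 10 and raised 4 in MUTZ-5. In either direction, JQ1 changed 28.5% of all genes in MHH-CALL4 and 22.0% in MUTZ-5. The list's median difference was 0.11, against 0.019 over all genes. Over the 7676 genes whose highest group mean reached the median level, the median difference was 0.062. Most members of the list, such as PAX5 (0.11) and IKZF3 (0.07), did not pass.

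Of 9 measured MHC class II genes, which serve antigen presentation to T cells, 6 fell in MHH-CALL4, where 28.5% of all genes were called in either direction. The MUTZ-5 effects of the 9 lay between -0.26 (RFX5) and 0.17 (HLA-DMB). The difference itself passed in 2 of 9 (limma; 5 of 9 at an unadjusted p under 0.05), both above 0, beside 0.949% of all genes called above 0 and 1490 of 14232 at that unadjusted p. The list median was 0.28, against 0.019 over all genes and 0.062 over the 7676 genes whose highest group mean reached the median level. CIITA, the master regulator of the class II genes, read 11.52, 11.59 and 11.57 under DMSO and 10.84, 10.86 and 10.83 under JQ1 in MHH-CALL4, and 11.65, 11.51 and 11.66 under DMSO and 11.40, 11.50 and 11.51 under JQ1 in MUTZ-5. The DMSO levels of the lines overlapped, and only the MHH-CALL4 JQ1 values stood apart (difference 0.58, SE 0.097, adjusted p = 0.0066). HLA-DMB, which helps to load peptides, differed by 0.61 (adjusted p = 0.022), and its call was lost in 6 of the 12 fits with 1 array left out (adjusted p from 0.054 to 0.082): those without MHH-CALL4 DMSO replicate 1 or 2, MHH-CALL4 JQ1 replicate 2, MUTZ-5 DMSO replicate 1 or 2, or MUTZ-5 JQ1 replicate 2.

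Myeloid granule genes held 4 calls among 16 measured members, all lower mainly in MHH-CALL4, beside 0.949% of all genes called above 0. Beside MPO these were CST7, an inhibitor of cathepsins (difference 1.63, SE 0.19, adjusted p = 3.5e-04; 0.65 with extended summaries), the protease CTSG (1.32, SE 0.15, adjusted p = 3.2e-04) and, singled out after its value was seen, the lysozyme gene LYZ (1.03, adjusted p = 0.0032). CTSG read 8.27, 8.48 and 8.64 under DMSO and 7.06, 7.11 and 7.17 under JQ1 in MHH-CALL4, and between 6.66 and 7.03 in MUTZ-5, so that here too the MHH-CALL4 DMSO arrays alone were high. The CTSG difference was 0.90 with extended summaries. The other 12 members had differences between -0.36 and 0.30, and the list median was 0.016. Of 11 myeloid markers 8 were measured. Their list mean was 7.44 to 7.54 in MHH-CALL4 under DMSO, 7.07 to 7.18 in MHH-CALL4 under JQ1, 6.95 to 7.11 in MUTZ-5 under DMSO and 7.01 to 7.09 in MUTZ-5 under JQ1. Only ELANE, and MPO in MHH-CALL4 under DMSO, reached the median of all genes, and MPO and LYZ belong to the markers themselves. The part of other cells in these values was not tested, and fewer cells of a type and less RNA per cell cannot be told apart in bulk samples.

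The integrated stress response and amino acid supply list, whose genes feed amino acid and one-carbon metabolism, had 4 calls among 30 members, beside 1.53% of all genes. CBS, which makes cystathionine from homocysteine, fell by 1.24 in MHH-CALL4 with an effect of 0.01 in MUTZ-5 (difference 1.25, SE 0.12, adjusted p = 1.1e-04), a call lost with extended summaries (0.46, adjusted p = 0.13). AARS1, the alanyl-tRNA synthetase, fell by 0.86 and 0.34 (difference 0.52, adjusted p = 0.017) and lost its call without MHH-CALL4 JQ1 replicate 2, MUTZ-5 DMSO replicate 1 or MUTZ-5 JQ1 replicate 1 (adjusted p from 0.050 to 0.065). PHGDH, the first enzyme of serine synthesis, read 12.26, 12.18 and 12.15 under DMSO and 11.54, 11.37 and 11.38 under JQ1 in MHH-CALL4, and between 7.18 and 7.81 in the 6 MUTZ-5 arrays. Its difference of 0.86 (adjusted p = 0.042) kept its call only in the fits without MHH-CALL4 JQ1 replicate 1 or any of the 3 MUTZ-5 DMSO arrays among the 12 fits with 1 array left out (otherwise adjusted p from 0.059 to 0.11). SLC7A5, a carrier of large neutral amino acids that was singled out after its value was seen, was the exception in direction, with falls of 0.90 and 1.35 (difference -0.46, adjusted p = 0.040). The list median was 0.20.

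In the precursor B cell and B cell receptor list 3 of 27 members were called, all lower mainly in MUTZ-5, beside 0.583% of all genes called in that direction, with a list median of 0.041. CD34, the surface antigen of progenitors, read 10.52, 10.41 and 10.93 under DMSO and 9.76, 9.65 and 9.59 under JQ1 in MUTZ-5, and between 6.77 and 7.14 in the 6 MHH-CALL4 arrays. JQ1 brought all 3 MUTZ-5 values below the DMSO values, and the MHH-CALL4 groups overlapped (difference -0.99, SE 0.18, adjusted p = 0.011). FCER2, the low-affinity IgE receptor CD23, fell by 0.87 in MUTZ-5 with an effect of -0.10 in MHH-CALL4 (difference -0.78, SE 0.12, adjusted p = 0.0045). VPREB3, which accompanies the precursor B cell receptor, differed by -0.90 (SE 0.20, adjusted p = 0.040), and among the 12 fits with 1 array left out its call stood only without MUTZ-5 DMSO replicate 2 or MUTZ-5 JQ1 replicate 3 (otherwise adjusted p from 0.059 to 0.11).

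Of 13 plasma cell genes 2 were called, both lower mainly in MUTZ-5, beside 0.583% of all genes called below 0, with a list median of -0.042. Both calls were lost in most fits with 1 array left out. They were TNFRSF17, the receptor BCMA (difference -1.05, SE 0.23, adjusted p = 0.038), and PRDM1, the plasma cell factor Blimp-1 (-0.66, SE 0.15, adjusted p = 0.041). TNFRSF17 kept its call only without MHH-CALL4 DMSO replicate 3, MHH-CALL4 JQ1 replicate 1 or MUTZ-5 DMSO replicate 2 or 3 (otherwise adjusted p from 0.052 to 0.11). PRDM1 kept it only without MHH-CALL4 DMSO replicate 1 or MHH-CALL4 JQ1 replicate 3 (otherwise 0.054 to 0.12). Both were low in MHH-CALL4, with DMSO means of 5.76 ± 0.13 for TNFRSF17 and 7.40 ± 0.13 for PRDM1 (SD, n = 3). TNFRSF17 was low in MUTZ-5 too. Its highest group mean, 6.94 in MUTZ-5 under DMSO, lay below the lower quartile of all genes (6.99). The highest group mean of PRDM1, 8.43 in MUTZ-5 under DMSO, lay below the median level (8.52).

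Adhesion molecules and integrins had 5 calls among 31 members, in both directions, beside 1.53% of all genes. The list median was -0.044 and changed sign between alternatives, from -0.088 without MHH-CALL4 JQ1 replicate 1 to 0.12 under the filter on the median level. PECAM1, an adhesion receptor of leukocytes and endothelium, read 10.61, 10.89 and 10.61 under DMSO and 8.04, 8.10 and 7.81 under JQ1 in MHH-CALL4, and 12.64, 12.58 and 12.65 under DMSO and 11.19, 11.08 and 11.12 under JQ1 in MUTZ-5. It fell in both lines without overlap, 6.60-fold and 2.81-fold, and was the higher in MUTZ-5 throughout (difference 1.23, SE 0.13, adjusted p = 2.4e-04). The PECAM1 difference was 0.91 with extended summaries. The other calls were ITGA8 and ITGB3, described before, and, singled out after their values were seen, the integrin chains ITGA6 (-0.76, adjusted p = 0.027), which fell by 0.98 in MUTZ-5, and ITGB7 (0.42, adjusted p = 0.039), which fell by 0.32 in MHH-CALL4. Of 17 genes of ERK pathway feedback 2 were called, both lower mainly in MUTZ-5, beside 0.583% of all genes called below 0. DUSP6, the phosphatase that switches off ERK and also a STAT5 target on these lists, fell by 0.37 and 1.21 (difference -0.84, SE 0.16, adjusted p = 0.016). CCND1, cyclin D1, fell by 0.90 in MUTZ-5 with an effect of 0.05 in MHH-CALL4 (difference -0.96, SE 0.14, adjusted p = 0.0021; -0.63 with extended summaries). DUSP6 was the only call among 19 STAT5 targets and CCND1 the only one among 20 G1 regulators.

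In several lists no member was called for a difference between the lines, beside 1.53% of all genes. At that share a list of this size can easily hold no call, so a count of 0 does not set these lists apart. Of 38 MYC target genes, which serve ribosome assembly and growth, JQ1 lowered 32 in MHH-CALL4 and 30 in MUTZ-5, and 0 passed the limma test of the difference (5 at an unadjusted p under 0.05, where 1490 of all 14232 genes were). Their median difference was 0.15, with members from -0.12 (HSPD1) to 0.41 (NOC3L), and UTP20 at 0.22 and EXOSC5 at 0.36. Of 36 DNA replication genes JQ1 lowered 15 in MHH-CALL4 and 6 in MUTZ-5, and limma called 0 differences (10 at an unadjusted p under 0.05, median 0.16). Of 21 RNA polymerase I and III genes it lowered 11 and 9, and limma called 0 differences (4 unadjusted, median 0.16). Beside these counts per line, JQ1 changed 28.5% of all genes in MHH-CALL4 and 22.0% in MUTZ-5, in either direction. In all 3 lists the median stayed above 0 after median centring (0.15, 0.17 and 0.17) and after cyclic loess (0.092, 0.11 and 0.10). Over the 7676 genes whose highest group mean reached the median level, the median difference was 0.062 without these steps. The limma test called 0 of 33 mitosis genes (2 unadjusted), 0 of 37 interferon-stimulated genes (6), 0 of 24 p53 targets (6), 0 of 14 JAK-STAT components (3), 0 of 14 genes of the P-TEFb, 7SK and elongation list (2) and 0 of 3 BET proteins (0). It also called 0 of 17 cholesterol synthesis genes (3), 0 of 19 glycolysis genes (3), 0 of 22 lysosome and autophagy genes (3) and 0 of 16 cytosolic ribosomal proteins (2).

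The remaining lists held calls of single genes that have been described above. Of 16 measured genes on the replication-type histone list 3 were called, beside 1.53% of all genes called. H4C8 and H2BC11 rose further in MHH-CALL4. H2AJ, a gene for a histone variant that the list also holds and that is not of the replication type, rose in MUTZ-5. H2BC5 rose by 1.71 and 1.43 and H2BC21 by 1.42 and 1.36, with differences of -0.28 and -0.06 that did not pass. IL1B and GSDME were the calls among 14 pyroptosis and inflammasome genes, IL1B the only one among 25 NF-kappaB genes and among 42 chemokines, cytokines and receptors, BCL2 among 13 BCL2 family members, and MYC among 13 members of its network. Among 25 immediate early genes MYC and IER2 were called. IER2 rose by 0.26 in MHH-CALL4 and fell by 0.25 in MUTZ-5 (difference -0.51, SE 0.12, adjusted p = 0.048), and with 1 array left out the call stood only without MUTZ-5 DMSO replicate 2 (otherwise adjusted p from 0.056 to 0.14).

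**Figure D4:**
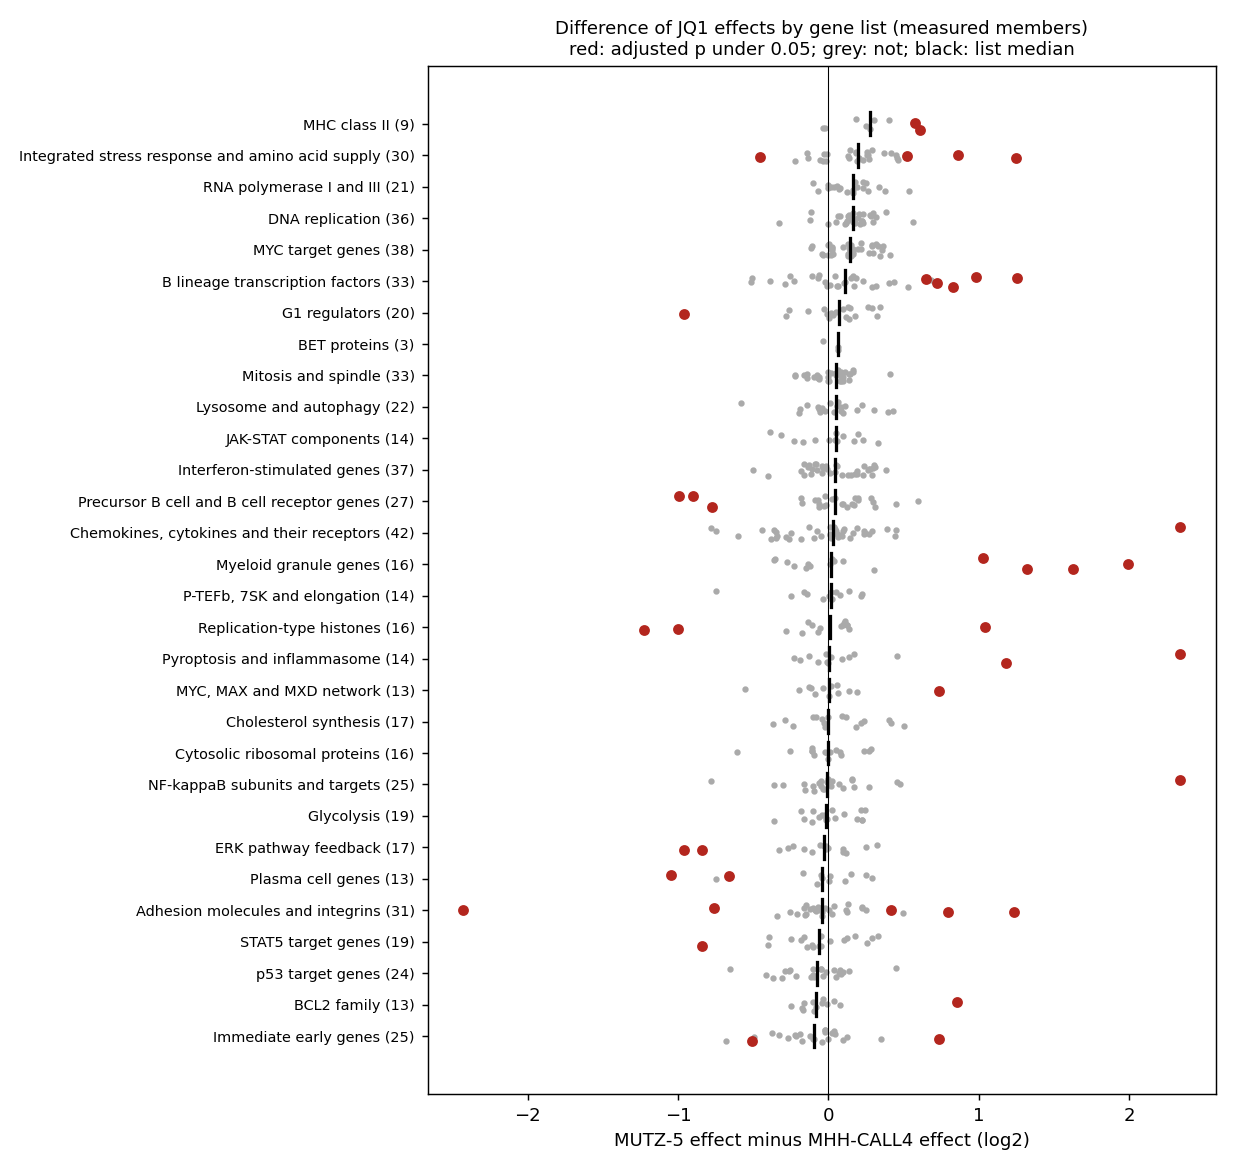
Difference of JQ1 effects (x axis, MUTZ-5 minus MHH-CALL4, log2) of every measured member of 30 gene lists (y axis, number of measured members in brackets). Red points passed the limma test, grey points did not, and black bars mark list medians, which lie between -0.098 (immediate early genes) and 0.28 (MHC class II).

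Levels before treatment are given side by side with the difference of effects, and since both use all 6 DMSO arrays nothing is read from their overlap. The lines differed in DMSO level in 3330 genes (23.4%), among them 194 of the 218. Of the 70 genes lowered in MHH-CALL4 alone 59 had the higher DMSO level there by the same test, and of the 45 lowered in MUTZ-5 alone 41 had the higher DMSO level in MUTZ-5. In the first set 28 of 70 had a MUTZ-5 DMSO mean below the lower quartile of all genes, against 24.9% of all genes. In the second 22 of 45 had such a mean in MHH-CALL4, against 26.1%. Over the whole class lower mainly in MHH-CALL4 it was 30 of 114 (26.3%) in MUTZ-5. Over the whole class lower mainly in MUTZ-5 it was 29 of 67 (43.3%) in MHH-CALL4. The gap between the lines was narrower under JQ1 than under DMSO in 150 of the 218 genes and wider in 68. The share of all genes with a narrower gap was not counted, so nothing is read from these numbers. GCSAM, CIITA, MYC, BCL2 and ERG, by contrast, had DMSO levels above the median of all genes in both lines. The files give no background level, so how far a gene at a low level could still fall was not tested.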

How the data were processed

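RNA of 12 samples was measured on 12 Affymetrix exon arrays. The authors ran RMA in Affymetrix Expression Console, per the submitters' processing notes, and deposited log2 values. They were summarised over transcript clusters (the array's unit for a gene) from core and from extended probe sets of the same scans. Program version and genome build are not given in the sources used here, so no gene coordinates are printed except for RefSeq promoters on GRCh38.p14. Of 22011 core clusters 14432 carry 1 gene symbol in the platform annotation, 2408 carry several and 5171 are unnamed here. For the 197 genes with several clusters the one with the highest mean was kept, leaving 14232 genes. No filter on low values was applied, and RefSeq gene IDs changed 0 symbols.

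A model with 4 group means was estimated from the core-level arrays (lmFit and eBayes of limma 3.58.1, R 4.3.3), with contrasts for the JQ1 effect in each line, their difference and the DMSO levels. Tests were two-sided and adjusted by Benjamini-Hochberg over all genes. A gene was called at an adjusted p under 0.05. The procedure was tested on simulated data with independent noise for each gene and array. The simulation held no arrays that stood apart, so nothing about the calls is read from it. The number of arrays limits the precision, and signal over background is unknown.

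The text names the 6 largest differences of each class among called genes whose highest group mean reaches the median level, up to 6 opposite genes, up to 3 called members of each of 30 lists, and MYC, IL7R, BRD2, BRD3, HEXIM1, JAK2, BCL2, BCL2L1, CDKN1A, SERPINI1, GSDME and PRKAR2B. The comparison, the lists and this rule were chosen with earlier results of these data known. Alternatives were extended summaries, median centring, cyclic loess, a level filter, a variance trend, array weights, replicate blocks, cluster means and leaving out arrays.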

Additional observations from a re-analysis of the deposited data

Results flagged for a closer look

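All genes in this section are listed because the JQ1 effects of MHH-CALL4 and MUTZ-5 differed by the limma interaction test over 14232 genes, and values are MUTZ-5 effect minus MHH-CALL4 effect in log2 units. Of the 49 called genes that the naming rule reaches, 40 kept their call in every fit with 1 array left out, 11 lost it under the replicate block within each line and 5 with extended summaries.

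Positive differences of more than 1 log2 unit were found for IL1B (2.34), GCSAM (2.04), MPO (1.99), KCNQ5 (1.87), LGR5 (1.77), SAMSN1 (1.76), CST7 (1.63), SERPINI1 (1.60), KHDRBS3 (1.38), CTSG (1.32), IKZF1 (1.26), CBS (1.25), PECAM1 (1.23), GSDME (1.18), H2AJ (1.04) and MPP1 (1.03). Smaller positive differences were found for IKZF2 (0.98), FGD6 (0.96), SYNE2 (0.86), PHGDH (0.86), TARS3 (0.86), BCL2 (0.86), ERG (0.83), ITGB3 (0.80), GNPTAB (0.75), MYC (0.73), HLA-DMB (0.61), CIITA (0.58) and AARS1 (0.52).

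Negative differences of more than 1 log2 unit were found for ITGA8 (-2.43), CYP26A1 (-2.13), GJB6 (-1.98), CHI3L2 (-1.89), GABRG3 (-1.79), ALKAL2 (-1.58), H4C8 (-1.23), GCHFR (-1.11), TNFRSF17 (-1.05) and H2BC11 (-1.003). Smaller negative differences were found for CD34 (-0.99), CCND1 (-0.96), VPREB3 (-0.90), DUSP6 (-0.84), DOK4 (-0.83), FCER2 (-0.78), PRKCB (-0.71), PRDM1 (-0.66), GAL3ST2 (-0.53) and IER2 (-0.51).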

How the results depend on the processing

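No called gene changed sign in an alternative that tested it (the level filter tested 155 of the 218), which says little, since genes past the threshold could hardly turn in refits of the same arrays. Median centring called 254 genes, cyclic loess 299, the level filter 247 of 7676 tested, the variance trend 264, cluster means 214 and extended summaries 203, of which 160 are among the 218. Of the named genes, median centring and cyclic loess did not call GAL3ST2 and PHGDH, and loess also did not call PRDM1 and TNFRSF17. Extended summaries gave 46 differences of at least 2-fold and 9 opposite genes, and did not call CBS, GCHFR, H2BC11, HLA-DMB and IER2. The classes higher mainly in MHH-CALL4 and higher mainly in MUTZ-5 held 25 and 35 genes after centring, 33 and 40 after loess, and 26 and 34 with the level filter. Gene-by-gene array weights, chosen after seeing the data because the default estimate did not converge, gave 1537 calls (943 above 0, 594 below) with classes of 627, 276, 318 and 316 genes (lower mainly in MHH-CALL4, lower mainly in MUTZ-5, higher mainly in MHH-CALL4, higher mainly in MUTZ-5) and 114 opposite genes, and 6230, 6061 and 5806 calls for the JQ1 effect in MHH-CALL4, in MUTZ-5 and the DMSO level. These weights run from 0.22 to 3.47. The cause of these changes was not tested.

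With 1 array left out the calls ranged from 157 to 360 (102 to 262 above 0, 55 to 98 below, 61 to 75 of at least 2-fold), the classes in the same order from 89 to 192, 43 to 72, 10 to 27 and 12 to 70, and the opposite genes from 10 to 34. The JQ1 effect was called in 2947 to 4575 genes in MHH-CALL4 and 2310 to 3265 in MUTZ-5, and the DMSO level in 2640 to 3699. Leaving out both replicate 3 arrays that stood apart (MUTZ-5 under DMSO, MHH-CALL4 under JQ1), a setting chosen after seeing the data, called 222 genes above 0, with 26 genes higher mainly in MHH-CALL4 and 60 higher mainly in MUTZ-5.

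Whether the replicate numbers pair the samples is not given in the labels. Residuals of same-numbered DMSO and JQ1 arrays correlated at 0.30, 0.070 and 0.23 in MHH-CALL4 and at -0.17, -0.21 and -0.44 in MUTZ-5. These correlations differ in sign between the lines and do not settle the pairing. A replicate block over all groups called 176 genes. A replicate block within each line called 136 (86 above 0, 50 below), with 37 genes lower mainly in MUTZ-5, 10 higher mainly in MUTZ-5 and 11 opposite, and 1688 calls for the DMSO level. Of the named genes it did not call AARS1, ALKAL2, CIITA, GAL3ST2, HLA-DMB, IER2, IKZF2, PHGDH, PRDM1, SYNE2 and VPREB3 (adjusted p from 0.057 to 0.10), and the block over all groups did not call GAL3ST2, IER2 and PRDM1.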

Other observations

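Other called genes, picked here after their values were seen and so without a test of any group, include several ion channels. KCNA3, the voltage-gated potassium channel Kv1.3 of lymphocytes, fell by 2.06 log2 units in MHH-CALL4 and by 0.72 in MUTZ-5 (difference 1.34). KCNA5, a channel of the same family, fell by 0.49 and 1.11 (difference -0.62), SCN4A, the sodium channel of skeletal muscle, by 0.55 and 1.50 (difference -0.95), and CACNA1C, an L-type calcium channel, by 0.58 and 1.16 (-0.58). CACNB2, a calcium channel beta subunit, fell by 1.66 and 0.92 (0.75). Secreted inhibitors of the Wnt and BMP pathways were also called, with NOG falling by 2.27 in MHH-CALL4 and 1.24 in MUTZ-5 (difference 1.02), and DKK1 and GREM1 falling by 1.08 and 1.59 in MUTZ-5 with MHH-CALL4 effects of -0.012 and -0.31 (differences -1.07 and -1.28).

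The stem cell marker PROM1 fell by 1.52 in MHH-CALL4 with an effect of -0.014 in MUTZ-5 (difference 1.51). RUNX2, a transcription factor of bone and lymphoid cells, fell by 1.03 in MUTZ-5 with an effect of 0.25 in MHH-CALL4 (difference -1.28). HDAC9, a class II histone deacetylase, fell by 0.38 in MHH-CALL4 and rose by 0.41 in MUTZ-5 (difference 0.79).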
